A study of Mus musculus with 2 samples.

Results

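The insulin-like growth factor 1 (IGF1) axis was examined as 9 genes named for this purpose, namely the ligand gene Igf1, the receptor genes Igf1r and Igf2r, and the binding protein genes Igfbp2, Igfbp3, Igfbp4, Igfbp5, Igfbp6 and Igfbp7. The members were taken by gene name. They were 9 of the 21348 genes that had a probe above background in at least 1 sample, and 17 probes carried their names. In the study, gene expression in submandibular gland epithelial cells was compared between young and aged mice. RNA came from 1 female C57BL/6 mouse of 9 weeks (young) and 1 female C57BL/6 mouse of 24 months (aged), given as C57BL/6N in the methods of the study, and no genetic change or treatment is given for either. Glands were digested with enzymes, and cells carrying EpCAM, a surface protein of epithelial cells, were enriched with magnetic beads. Each mouse gave 1 array of 60-base probes, and the young mice were bought from a breeder while the aged mice were kept at an institute, so that age, source and the individual mouse cannot be told apart.

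IGF1 is a secreted growth factor made in the liver under growth hormone and also locally in many tissues, often by stromal cells and macrophages. It acts through the IGF1 receptor, a tyrosine kinase that signals through insulin receptor substrates to PI3K, AKT and mTOR, whereas the IGF2 receptor removes IGF2 and carries enzymes tagged with mannose 6-phosphate to lysosomes. IGF-binding proteins hold IGFs in the extracellular space, and proteases release the ligand from them.

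Values are given first as the background-corrected intensity of a probe with the error that the scanner software attached to it, which covers a single spot and not the variation between mice. The scaled level is log2 of this intensity over the 75th percentile of the array, which was 256 in the young and 198 in the aged sample. A difference is the aged minus the young scaled level, and 2-fold (1 on the log2 scale) was the threshold. A probe is called above background where the software marked its signal as well above background, which held for 55.4% of 59305 probe spots in the young and for 50.8% in the aged sample. No test and no p-value was possible with a single array for each age, so the differences describe these 2 arrays. Between spots of the same probe, the difference varied by a median SD of 0.033 over 271 repeated probes. Levels of different probes cannot be ranked against each other, so the members are compared only by their differences, and summed levels below set the same probes side by side between the samples.

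The epithelial label was checked against 10 epithelial markers, all of which were above background in at least 1 sample. Epcam gave an intensity of 1778 in the young and 1573 in the aged sample, a difference of 0.20. Krt18, the brightest of the list, gave 84625 and 75885, a difference of 0.21, and the median of the list was 0.07 (-0.23 to 0.25 under the scalings tried). Krt19 was above background in the young sample only and was at least 1.85-fold lower in the aged sample. No epithelial marker passed 2-fold in the scaling used here, and 1 was at least 2-fold lower with scaling on spike-in controls or on probes above background in both samples. Markers of macrophages and fibroblasts were also above background, as described below.

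The 4 member probes at least 2-fold lower in the aged sample are identified here, with the other bright Igf1 probe beside them. The first 30 of their 60 bases are given 5′ to 3′, as in the array files. The letters AATAAA, those of a polyadenylation signal, are in capitals where they occur. The first Igf1 line is the probe matched to a RefSeq transcript and the second is the other bright Igf1 probe.
Igf1 A_51_P147942: cgcaggatcctttgctgcttgagcaacctg
Igf1 A_55_P2085979: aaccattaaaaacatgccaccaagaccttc
Igfbp2 A_55_P2056729: catctcttctacaacgagcagcaggagact
Igfbp5 A_52_P281702: cacatcacatattactgtagctctctatag
Igfbp5 A_66_P101782: tttagcattttggtacttaaggaAATAAAa
Probes of different members shared no run longer than 10 bases over their whole length, and the GC content of these 5 probes lay between 26.7% for A_66_P101782 and 55% for the Igfbp2 probe.

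Of the 17 member probes, 12 were above background in both samples, 1 in the aged sample only, 1 in the young sample only and 3 in neither. When each gene was read by its brightest probe, 2 of the 9 members, Igfbp2 and Igfbp5, were at least 2-fold lower in the aged sample, and none was at least 2-fold higher. Across the array, 5.24% of the 20935 genes with a difference or a limit were at least 2-fold lower and 2.57% were at least 2-fold higher. By probe, 4 of the 17 were at least 2-fold lower, 1 for Igf1, 1 for Igfbp2 and 2 for Igfbp5, and none was at least 2-fold higher. Across the array, 4.9% of the 30201 probes with a difference or a limit were lower and 2.38% were higher. The 3 member probes above background in neither sample had no difference or limit. The other 7 members did not pass 2-fold by their brightest probe. The median difference of the members was 0.18, beside 0.09 for the 18746 genes above background in both samples, with 5 positive and 4 negative differences, and it lay between -0.08 and 0.36 under the 7 scalings tried. The choice of probe moved the median further, to -0.15 with the mean of a gene's kept probes and also with its brightest RefSeq-matched probe. With the mean of kept probes, Igf1 gave -0.96. In bulk samples such as these, fewer cells of a type and less RNA per cell cannot be told apart.

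**Figure D1:**
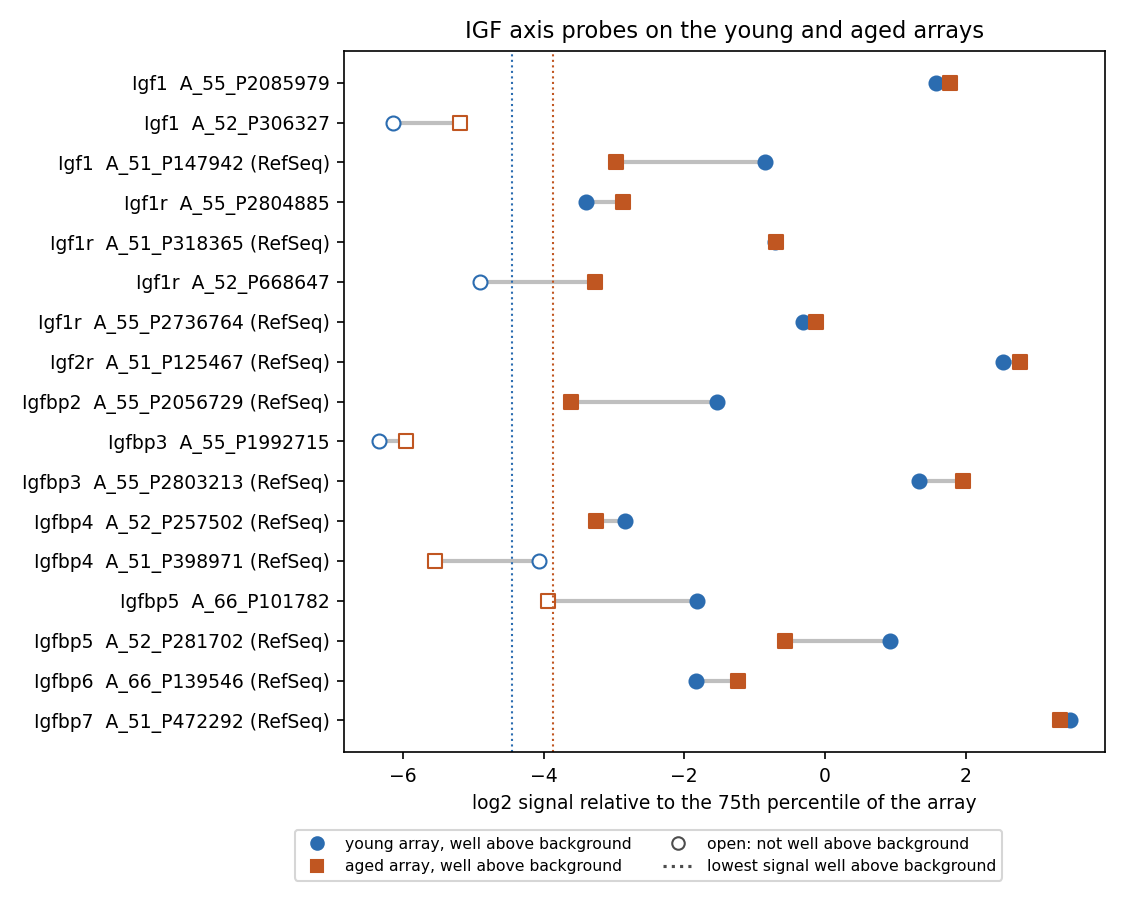
Scaled level (log2 of the intensity over the 75th percentile of the array) of each of the 17 IGF axis probes on the young (blue circles) and aged (orange squares) arrays, with open marks for values not above background and dotted lines at the lowest signal that the software marked as above background on each array. The widest gaps between filled marks are those of the RefSeq-matched Igf1 probe (-0.85 to -2.97) and Igfbp2 (-1.53 to -3.60), both toward lower values in the aged sample.

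The ligand gene Igf1 gave different answers by probe. A_51_P147942, matched to the RefSeq transcript NM_010512 at chr10:87393516-87393575 on the forward strand (mm9, the build of the files), gave an intensity of 142 ± 14.5 in the young and 25.3 ± 3.84 in the aged sample. Its scaled level was -0.85 and -2.97, so the difference was -2.12 with a software error of 0.26, or 4.34-fold lower in the aged sample. Of the 18746 genes, each read by its brightest probe, 78 had a lower difference than this probe, which was not the brightest of Igf1. A_55_P2085979, assigned in the files to an Ensembl transcript of Igf1 and to no RefSeq transcript, lies at chr10:87378456-87378515, 15.06 kb before the RefSeq-matched probe. It gave 762 ± 76.2 and 677 ± 67.8, a difference of 0.20 with an error of 0.20, which turned to -0.05 when arrays were scaled on spike-in controls. The difference of the RefSeq-matched probe minus that of the other probe was -2.32 on the log2 scale and lay between -2.32 and -1.15 under the 7 scalings tried. Read by the brightest RefSeq-matched probe of each gene, 3 of the 9 members (Igf1, Igfbp2 and Igfbp5) were at least 2-fold lower and none higher. Of the 15608 genes with a difference or a limit when read in this way, 5.68% were lower and 2.33% higher. The third Igf1 probe, at chr10:87325382-87325441, was not above background in either sample. Whether a probe lies in an exon, an intron or an untranslated region could not be read, because no annotation of the build was used here, and the transcripts behind both bright probes were not tested.

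The receptor genes did not pass 2-fold in any of their probes in the main scaling. For Igf1r, the receptor tyrosine kinase, the brightest probe (A_55_P2736764, chr7:75371371-75371430) gave 206 ± 20.8 in the young and 180 ± 18.3 in the aged sample, a difference of 0.18 with an error of 0.21. A second RefSeq-matched probe (A_51_P318365), 185 bases after it, gave 156 and 122, a difference of 0.01. Both differences were smaller than their software errors. Another pair of Igf1r probes lies 38.6 and 38.9 kb before the brightest, on the Ensembl transcript ENSMUST00000207621. A_55_P2804885 gave 24.2 and 27.0, a difference of 0.53 with an error of 0.32, and A_52_P668647 was not above background in the young sample (8.52) and gave 20.6 in the aged sample, which made it at least 1.89-fold higher. This lower limit passed 2-fold, at 1.10 on the log2 scale, when arrays were centred on their medians or quantile-normalized. Igf2r, the mannose 6-phosphate receptor that clears IGF2, had a single probe (A_51_P125467, chr17:12875253-12875263 in the files, which place only 11 of its bases). It gave 1480 ± 148 and 1348 ± 135, a difference of 0.24 with an error of 0.20. The sign of the differences of Igf1r and Igf2r turned when arrays were scaled on spike-in controls, to -0.08 and -0.02.

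Igfbp2, which encodes a binding protein with a preference for IGF2, had the lowest difference of the 9 members by their brightest probes. Its probe (A_55_P2056729, NM_001310659, chr1:72898677-72898736, forward strand) gave 88.4 ± 9.33 in the young and 16.3 ± 3.42 in the aged sample. The scaled level was -1.53 and -3.60, a difference of -2.07 with an error of 0.34, or 4.20-fold lower in the aged sample. The aged intensity was close to 14.3, the lowest intensity above background on that array, and with normexp background correction the difference was -0.70, short of 2-fold. Igfbp5, whose protein binds IGFs and extracellular matrix, was measured by a pair of probes. A_52_P281702 (NM_010518, chr1:72904829-72904888, reverse strand) gave 485 ± 48.6 and 134 ± 13.9, a difference of -1.48 with an error of 0.21, or 2.79-fold lower. A_66_P101782 (chr1:72904506-72904552, 47 of its bases placed) gave 72.2 ± 7.79 in the young sample and was not above background in the aged sample (12.9), which made it at least 3.91-fold lower. Both Igfbp5 probes were thus lower in the aged sample by more than 2-fold, but with normexp the second was short of it at -0.64. Of the 18746 genes, 84 had a lower difference than Igfbp2 and 251 a lower difference than Igfbp5.

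Igfbp2 and Igfbp5 are neighbours on chromosome 1, and the Igfbp5 probes lie 5.83 and 6.15 kb after the Igfbp2 probe on the opposite strand. Of the 14 probes within 250 kb of the Igfbp2 probe, 6 were above background in both samples and 6 in neither, and the 3 that passed 2-fold, all lower, were the probes of Igfbp2 and Igfbp5. The nearest other gene with a measured difference in both samples was Rpl37a, a ribosomal protein gene 139 kb before, at 0.69. Smarcal1, which encodes a DNA annealing helicase, gave 0.42 and 0.05 by its probes, and 1700027A15Rik, 173 kb after, gave 0.81.

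**Figure D2:**
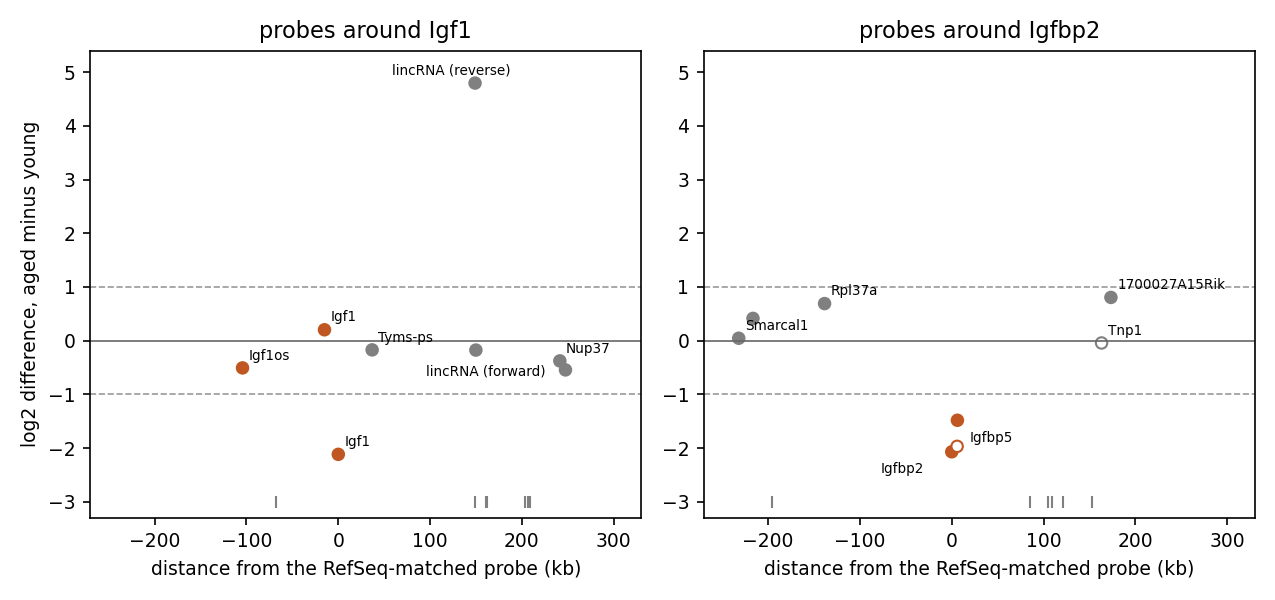
Difference (log2, aged minus young) of probes within 250 kb of the RefSeq-matched Igf1 probe (left) and of the Igfbp2 probe (right) by distance in kb, with IGF axis genes and Igf1os in orange, limits as open marks, probes without a difference or limit as ticks at the bottom, and dashed lines at 2-fold. The Igfbp2 and Igfbp5 probes are the only points below the lower dashed line on the right, and on the left the RefSeq-matched Igf1 probe lies below it and a long noncoding RNA probe at 4.80 lies far above the upper line.

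The proximal promoters of both genes, taken from RefSeq sequence on GRCm38.p6, are shown because these neighbouring members were lower together. The 250 bases before the transcript start are printed in the direction of the gene, and their coordinates are not on the build of the probe positions above. Capitals mark GGGCGG, the letters of a GC box, and CACGTG, the letters of an E-box.
Igfbp2 promoter, chr1:72824230-72824479, forward strand: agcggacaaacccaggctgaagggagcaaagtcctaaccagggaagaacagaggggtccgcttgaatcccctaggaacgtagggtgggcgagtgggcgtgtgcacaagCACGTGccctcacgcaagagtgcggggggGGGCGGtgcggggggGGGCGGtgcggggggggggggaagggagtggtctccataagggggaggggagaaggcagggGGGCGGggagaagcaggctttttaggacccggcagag
Igfbp5 promoter, chr1:72874866-72875115, reverse strand: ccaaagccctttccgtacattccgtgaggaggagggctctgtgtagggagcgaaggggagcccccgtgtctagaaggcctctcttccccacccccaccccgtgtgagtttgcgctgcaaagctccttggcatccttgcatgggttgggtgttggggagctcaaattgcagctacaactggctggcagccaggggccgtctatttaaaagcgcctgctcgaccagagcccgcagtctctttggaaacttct
The Igfbp2 window had a GC content of 67.2%, with GC boxes 113, 98 and 37 bases and an E-box 142 bases before the start. The Igfbp5 window had a GC content of 58.8% and no match to any of the 5 motifs searched on both strands. RefSeq gave 10 promoters for the 9 members, since Igfbp2 had a second start. The GC box letters were found in 4 of these 10, beside 32.7% of 32851 promoters of the same length, and the E-box letters in 2, beside 6.02%. TATAAA, the letters of a TATA box, occurred in 2 member promoters, beside 12.4% of all. The FOXO motif, searched as GTAAACA, occurred in none, beside 3.17%. The STAT motif, searched as TTCNNNGAA, also occurred in none, beside 7.02%. These are matches of letters and not measured binding sites.

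Igfbp3 and Igfbp6 had the highest differences of the 9 members by their brightest probes. Igfbp3 encodes the main IGF carrier of the circulation, and its RefSeq-matched probe (A_55_P2803213, NM_008343, chr11:7106193-7106252) gave 648 ± 64.8 in the young and 771 ± 77.1 in the aged sample. The scaled level was 1.34 and 1.96, a difference of 0.62 with an error of 0.20, or 1.54-fold higher. A second Igfbp3 probe was not above background in either sample. Igfbp6, which encodes a binding protein with a strong preference for IGF2, gave 71.8 ± 8.01 and 83.6 ± 9.08 (A_66_P139546, chr15:101979852-101979911), a difference of 0.59 with an error of 0.22, or 1.51-fold higher. Neither passed 2-fold under any scaling tried, with ranges of 0.36 to 0.80 for Igfbp3 and 0.33 to 0.77 for Igfbp6. Of the 18746 genes, 1515 had a higher difference than Igfbp3 and 1793 a higher difference than Igfbp6. The difference of Igfbp2 minus that of Igfbp3 was -2.69, and the difference of Igfbp5 minus that of Igfbp3 was -2.11. With normexp background correction of the raw intensities, these gaps were -1.22 and -1.67.

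Igfbp4 and Igfbp7 showed small negative differences. Igfbp4 encodes a binding protein that is cleaved by the protease pappalysin, and its brightest probe (A_52_P257502, chr11:98913334-98913393) gave 35.7 ± 4.69 and 20.8 ± 3.69, a difference of -0.41 with an error of 0.32. Its other probe was not above background in either sample. Igfbp7 encodes a secreted protein with low affinity for IGFs that is found around vessels and is released by senescent cells. Its probe (A_51_P472292, chr5:77778355-77778414) gave 2868 ± 287 and 2004 ± 200, a difference of -0.15 with an error of 0.20. The sign of both differences turned to 0.03 under another setting, normexp for Igfbp4 and centring on the array median for Igfbp7.

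**Figure D3:**
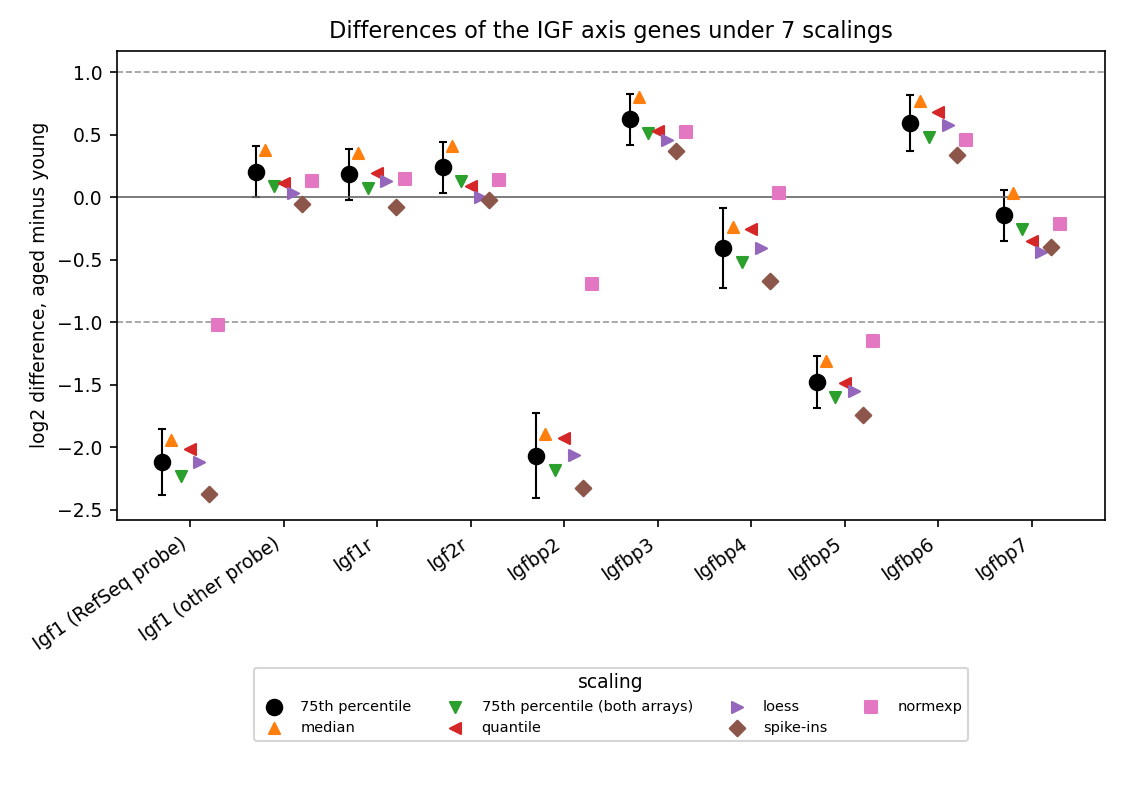
Difference (log2, aged minus young) of each IGF axis gene under 7 scalings of the arrays, with the RefSeq-matched and the other Igf1 probe apart, the main scaling as black circles with the software error as bars, and dashed lines at 2-fold. Igfbp5 and the RefSeq-matched Igf1 probe lie below the lower dashed line under all 7, from -1.74 to -1.15 and from -2.38 to -1.02, and Igfbp2 under all but normexp (-0.70).

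The other genes of the pathway were read from 8 lists with 69 genes, of which 56 were above background, in each case in both samples. None was at least 2-fold higher and 2 were at least 2-fold lower, Irs1 and Htra1, and the median difference was 0.04. The medians given below for the pathway lists all changed sign under at least 1 of the 7 scalings. Among genes above background in both samples, 3.05% were at least 2-fold lower and 1.51% at least 2-fold higher.

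The other ligands and binding proteins of the family, Igf2, Ins1, Ins2, Igfbp1, Igfals and Igfbpl1, were not above background in either sample. Igf2, the second IGF ligand, had a pair of probes with intensities between 2.94 and 3.16 on these arrays. Of 6 genes that encode proteases of binding proteins or their inhibitors, 4 were measured. Htra1, a secreted serine protease that cleaves several binding proteins, gave 383 in the young and 130 in the aged sample, a difference of -1.19 or 2.28-fold lower, and with normexp it was -0.94. Its second probe was not above background in either sample. The other 3 were close to equal, with 0.17 for Pappa, the protease of IGFBP4, -0.15 for its inhibitor Stc1 and -0.05 for Adam12.

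Of 13 receptor and adaptor genes, 12 were measured, with a median of -0.04. Irs1, an insulin receptor substrate that docks PI3K at the activated receptor, gave 152 in the young and 35.4 in the aged sample. Its scaled level was -0.76 and -2.48, a difference of -1.73 or 3.31-fold lower, and with normexp it was -0.89. Irs2, the other main substrate, gave 3201 and 2495, a difference of 0.01, so that only the first of this pair passed 2-fold. The insulin receptor gene Insr gave 70.1 and 44.4 by its single measured probe, a difference of -0.29, and its other probes were not above background in either sample. The highest difference of the list was 0.56 for Ptpn1, a phosphatase of the insulin receptor.

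All 19 genes of the PI3K, AKT and mTOR list were measured, and none passed 2-fold. Their differences lay between -0.35 for Pik3cb, a catalytic subunit of PI3K, and 0.45 for Eif4ebp1, a translation repressor under mTOR. The median was 0.14 with 15 positive differences, and the AKT kinase genes Akt1 and Akt2 gave 0.35 and 0.33. The sign of the median turned to -0.12 with scaling on spike-in controls. Of the 9 genes of FOXO factors and their targets, 7 were measured and none passed 2-fold, with a median of 0.03. Foxo6 came nearest, with 548 in the young and 220 in the aged sample and a difference of -0.95, which passed 2-fold at -1.06, -1.04 and -1.20 under scaling on probes measured in both samples, loess and spike-in controls. Pck1, a gluconeogenic enzyme gene, gave -0.70 and Trib3, which encodes a pseudokinase that binds AKT, gave 0.60.

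Growth hormone signalling, which drives Igf1 in liver, was covered by 9 genes, all measured and none past 2-fold, with a median of -0.09. The receptor gene Ghr had 4 probes, of which the brightest gave -0.67, another -0.64 and the others 0.12 and 0.19. The intensity of the brightest was 744 and 362. With normexp its difference was -0.62, but another Ghr probe was then the brightest and gave 0.08. Socs2, a feedback inhibitor induced by growth hormone, gave 0.24. Of the 3 genes of Igf2 mRNA-binding proteins, Igf2bp3 was measured, at 0.04. The 4 genes of mannose 6-phosphate sorting, which supplies the lysosomal cargo of the IGF2 receptor, were measured with a median of 0.23, from -0.51 for Gnptab to 0.60 for Gnptg, both of which encode parts of the enzyme that makes the tag.

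Markers of other cell types that a bead enrichment could still hold were read beside these values. Of 10 fibroblast markers, 9 were measured and 5 were at least 2-fold lower in the aged sample, with a median of -1.21 and a summed scaled level of 24.3 in the young and 10.7 in the aged sample. They were Fn1 (-2.12), Col1a1 (-1.81), Col3a1 (-1.73), Col1a2 (-1.44) and Pdgfra, which was at least 2.45-fold lower. Of the 8 fibroblast markers above background in both samples, 6 had negative differences. The 2 positive ones were Thy1 (0.34) and Fbln1 (0.06). Dcn, the brightest gene of the list, gave 3475 and 1360, a difference of -0.98, and Dpt was not above background in either sample. Of 12 macrophage markers, all measured with negative differences, 9 were at least 2-fold lower, with a median of -1.17 and a summed level of 208 and 109. Lyz2, the brightest, gave 23810 and 4884, a difference of -1.91. The others past 2-fold were Mrc1 (-1.88), Fcgr1 (-1.56), C1qc (-1.41), Adgre1 (-1.36), C1qb (-1.23), Cx3cr1 (-1.11), Cd68 (-1.06) and C1qa (-1.06). Under the 7 scalings, between 4 and 7 fibroblast markers and between 6 and 10 macrophage markers were at least 2-fold lower. The median lay between -1.47 and -0.90 for the fibroblast list, short of 2-fold with normexp, and between -1.42 and -0.99 for the macrophage list, short of 2-fold with centring on the array median.

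The RefSeq-matched Igf1 probe, Igfbp2, Igfbp5, Irs1 and Htra1 were thus lower on the same array as most of the fibroblast markers and all of the macrophage markers. The part of these cells in the differences of the IGF axis genes was not tested, nor that of the epithelial and lymphocyte types described next. Markers of vessels were nearer to equal. None of 10 endothelial markers passed 2-fold, with a median of -0.51 and a summed level of 12.3 and 8.89, and Plvap, the brightest, gave -0.41. Still, 8 of the 9 endothelial markers measured in both samples had negative differences. Their median was negative under all 7 scalings, from -0.76 to -0.24. None of 7 pericyte markers passed 2-fold, with a median of 0.36 and a summed level of 9.32 and 10.2, and Notch3, the brightest, gave 0.07. Pdgfrb, a defining pericyte marker, had an intensity of 16.7 in the young sample and 15.9 in the aged sample. It was above background in the young sample only and had no difference or limit.

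**Figure D4:**
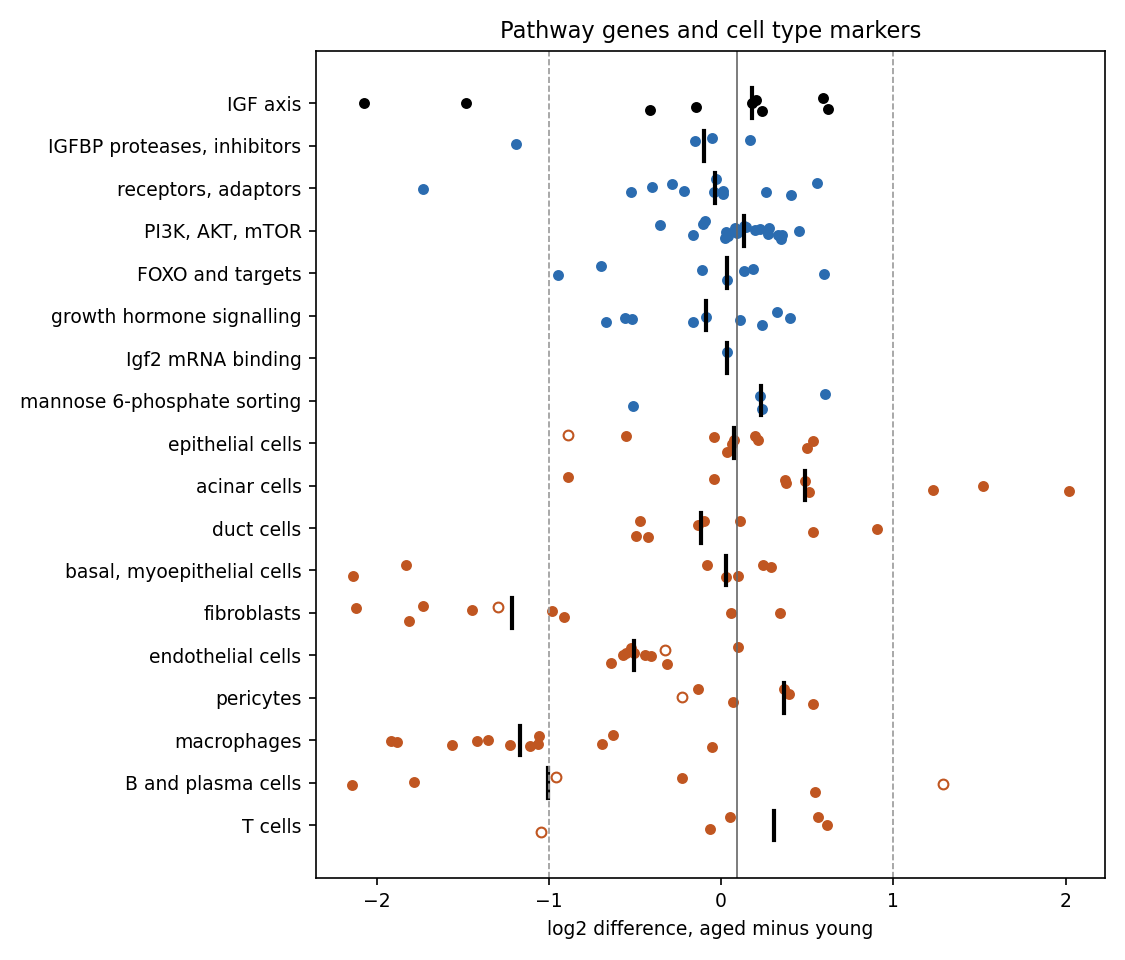
Difference (log2, aged minus young) of each measured gene of the IGF axis (black), the pathway lists (blue) and the cell type marker lists (orange), with limits as open marks, list medians over genes measured in both samples as black bars, dashed lines at 2-fold and a grey line at the median of all genes (0.09). Irs1 (-1.73) and Htra1 (-1.19) are the only blue points past a dashed line, while the medians of the fibroblast (-1.21) and macrophage (-1.17) lists lie past the lower one in this scaling.

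Among epithelial lineages, the summed level of 9 acinar markers was 5205 in the young and 7383 in the aged sample, but their median difference of 0.49 depended on the scaling and was -0.31 with loess. Of these, 3 were at least 2-fold higher, namely Smr3a (2.02), Bpifa2 (1.52) and Amy1 (1.23), and Dcpp1, the brightest, gave 0.37. None of 8 duct markers passed 2-fold, and Klk1, the brightest, gave -0.10, with a summed level of 1154 and 1045. Of 7 basal and myoepithelial markers, Cnn1 (-2.14) and Myh11 (-1.83), both smooth muscle genes, were at least 2-fold lower. Acta2, another smooth muscle gene of the list, gave -0.08, and Krt5, Krt14 and Oxtr gave 0.03, 0.25 and 0.10. The list median was 0.03 (-0.26 to 0.21 under the 7 scalings). Trp63, the brightest, gave 0.29, and the summed level was 67.5 and 75.6. In the lists of lymphocytes, 2 of 6 measured B and plasma cell markers were at least 2-fold lower (Cd79b and Jchain), and 1 of 5 measured T cell markers, Cd3g, was lower. Xbp1 and Cd4, the brightest of these lists in the young sample, gave 0.55 and 0.05, and the list medians lay between -1.26 and -0.49 and between 0.05 and 0.48 under the 7 scalings. Cd79a and Mzb1 of the first list and Cd8a of the second were not above background in either sample.

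Around Igf1, 15 probes lay within 250 kb of the RefSeq-matched probe, of which 8 were above background in both samples and 7 in neither. Igf1os, the antisense transcript of Igf1, gave 43.8 in the young and 23.8 in the aged sample, a difference of -0.51. A probe on the reverse strand of a long noncoding RNA region (chr10:87541696-87547421), 149 kb after the Igf1 probe, had a scaled level of 0.45 and 5.24, and was 27.8-fold higher in the aged sample. Another reverse-strand probe within the region was not above background in either sample, and a forward-strand probe of the region gave -0.18. Igf2r is overlapped on the opposite strand by Airn, the noncoding RNA that silences the paternal Igf2r allele, and the Airn probes gave differences of -0.03 and -0.15, with another probe not above background in either sample. Of 24 probes within 250 kb of the Igf2r probe, 1 passed 2-fold, a probe of Acat3 at -1.82. Igfbp3 lies beside Igfbp1, and of the 7 probes within 250 kb of its RefSeq-matched probe none passed 2-fold.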

How the data were processed

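Gene expression was measured on Agilent mouse arrays hybridized with Cy3-labelled cRNA, 1 array per age, both on the same slide. The deposited files, made with Agilent Feature Extraction 12.0.3.1, hold for each spot a background-corrected intensity without scaling between arrays, its error and a mark for signals well above background, per the file headers. In the authors' processed table these intensities are divided by 229 (young) and 176 (aged), and the table served as an alternative.

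Control spots and outlier spots were left out, spots of a probe were averaged, and log2 of the intensity minus log2 of the 75th percentile over non-control spots was the level. Of 56597 probes, 30910 carried the mark in at least 1 sample and were kept. The brightest kept probe by mean log2 intensity stood for its gene. For a probe with the mark in 1 sample only, the fold is a lower limit, taken against the dim value or the lowest marked signal of that array, whichever was higher, and it was left out where it came to less than 1. Normexp with an offset of 50 and quantile normalization were run in limma 3.58.1 (R 4.3.3), and the calculation of differences and limits was tested on simulated data. For 33757 probes the accession in the files matched a GRCm38.p6 gene table, which gave the gene name, and the other probes kept the name in the files. The text names all members, pathway genes past 2-fold together with Igf2, Insr, Ghr, Irs1 and Irs2, the brightest gene of each marker list, and markers past 2-fold of fibroblasts, endothelial cells, pericytes and macrophages, while other genes named as the ends of a range or beside these were chosen after their values were seen. The members and lists were chosen with earlier results of these data known. Each group was 1 mouse, per the labels, and the number of arrays limits the precision. Some genes of the lists are not reported here by name.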

Additional observations from a re-analysis of the deposited data

How the results depend on the processing

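The counts of members past 2-fold were recomputed under 13 other settings and the differences and medians under those that apply to them, and reading each gene by its brightest RefSeq-matched probe was added after seeing that the Igf1 probes differed. Members at least 2-fold higher stayed at 0 in all settings, with the count by any kept probe made in the main scaling only. An Igf1r probe that was not the brightest passed 2-fold higher, at 1.10, with centring on the array median or quantile normalization. The number of members at least 2-fold lower was 2, except for 1 with normexp. It was 3 when a member counted by any kept probe or when genes were read by their brightest RefSeq-matched probe. In the RefSeq-matched reading, Igf1 gave -2.12 in place of 0.20, the opposite sign. With normexp, Igfbp2 (-0.70), the second Igfbp5 probe (-0.64), Irs1 (-0.89) and Htra1 (-0.94) no longer passed 2-fold, for which the cause was not tested. Ghr gave 0.08 with normexp because another of its probes was then the brightest, and its brightest probe of the main scaling gave -0.62.

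The scaling moved the median of all genes, by 0.18 with centring on the array median, -0.11 with the 75th percentile of probes measured on both arrays, -0.14 with loess and -0.26 with spike-in controls. Genes at least 2-fold higher and lower numbered 539 and 1098 in the main scaling (32.9% higher), 802 and 867 with the median (48.1%), 348 and 1619 with spike-in controls (17.7%), 1575 and 1838 without the filter (46.1%), 182 and 297 with normexp, and 285 and 572 over genes above background in both samples. Leaving dim values as they stand gave 650 and 1691. The slide was not fitted as a block, since 1 array per age leaves no residual degrees of freedom. No paired analysis was possible because each age had 1 array. Intensities near background limit the values of Igfbp2, Igfbp4 and the RefSeq-matched Igf1 probe on the aged array.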
